A study of Mus musculus with 6 samples.

Results

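The enzymes that carry pyruvate into the citric acid cycle and turn the cycle were examined through 32 genes, chosen by symbol from the textbook pathway and found among the 55291 gene symbols of the deposited tables. The genes were grouped by role as pyruvate entry (the mitochondrial carrier, the dehydrogenase complex, and its kinases and phosphatase, 12 genes), the cycle enzymes (12 genes), and anaplerosis and shuttles (8 genes). RNA came from RAW264.7 cells, a line of mouse macrophages first grown from ascites, that carried a short hairpin against Usp8 (shUSP8, n = 3) or a control hairpin (shCtrl, n = 3). All 6 cultures had received RANKL, the cytokine that drives osteoclast formation, at 50 ng/mL for 4 days. Usp8 encodes a deubiquitinating enzyme of endosomes, and the study's title concerns its part in the mitochondria of osteoclasts. The hairpin sequence and whether the cells were a clone or a pool are not given in the sources used here. Nothing in the labels tells whether the 3 libraries of each kind are separate cultures, so the p-values rest on a spread that may be only technical.

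Pyruvate from glycolysis is carried through the inner mitochondrial membrane and is then either decarboxylated to acetyl-CoA by the pyruvate dehydrogenase complex or carboxylated to oxaloacetate by pyruvate carboxylase. The cycle oxidises the acetyl group and passes electrons to the respiratory chain, and the malate-aspartate shuttle moves cytosolic reducing power into the matrix. Osteoclasts are rich in mitochondria, and their formation and bone resorption draw on oxidative metabolism.

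The libraries held 19973522 to 20213939 expected counts each. Usp8 had 656, 720 and 718 expected counts in shUSP8 libraries, against 2785, 2561 and 2645 in shCtrl libraries, which fitted as -2.00 on the log2 scale (SE 0.06, edgeR adjusted p = 1.47e-10). All 6 macrophage markers and all 10 osteoclast markers exceeded 1 TPM in every library. The summed macrophage markers were 5704.7 to 6321.2 TPM in shUSP8 libraries, against 3931.1 to 4227.3 TPM in shCtrl libraries, and the summed osteoclast markers were 9452.8 to 9795.2 TPM in shUSP8 libraries, against 9986.3 to 10861.3 TPM in shCtrl libraries. Neither pair of ranges overlaps, and the part of these shifts in the results below was not tested. The T cell markers were listed at 0, and the summed B cell, stromal, neutrophil and epithelial markers did not pass 1.73 TPM. The library shUSP8_1 stood apart. It held 4415.4 summed counts of 14 skeletal muscle genes, against 166.0 to 241.0 in the other 5 libraries, and 586.0 counts of 4 haemoglobin genes, against 0 to 4. These 2 lists were chosen after the values were seen, and their part in the results was not tested. The library shUSP8_2 had an estimated mean fragment length of 367.3 nt, against 290.5 to 308.3 nt in the other 5. These lengths were inferred from the counts, TPM and transcript lengths of 296 genes and were not measured. In bulk RNA of this kind, fewer cells of a type and less RNA per cell cannot be told apart.

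Many transcripts of pyruvate entry and of the cycle were lower in shUSP8 cells, by small amounts in counts that often lost the test on TPM, while pyruvate carboxylase was higher on both scales. Of the 32 genes, 31 passed the filter on low counts. In edgeR's quasi-likelihood test, 14 of these 31 fell (45.2%, where 14.9% of all 12440 genes tested fell) and 2 rose (6.45%, where 17.8% of all genes tested rose). The median log2 fold change of the 31 was -0.14, and that of all genes tested was -0.005. In counts 27 of 31 were below 0, where 50.8% of all genes were. On TPM 17 of 31 were below 0, where the all-gene median was 0.11 and the share of all genes below 0 was not counted. The largest fall was that of Pdhb, the beta subunit of the E1 component of pyruvate dehydrogenase, at -0.49 (SE 0.05), and the largest rise was that of Pcx, pyruvate carboxylase, at 0.76 (SE 0.07). The shUSP8 libraries lay wholly below the shCtrl libraries in CPM (counts over the library's total, scaled with TMM factors) for 21 of 31 genes (67.7%, against 23.1% of all genes tested). They lay wholly above for 2 genes (6.45%, against 24.6%), and the groups overlapped for 8. Without shUSP8_1 the counts were again 14 lower and 2 higher, where 16.5% and 18.7% of all genes were, and every one of the 16 calls was kept.

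**Figure D1:**
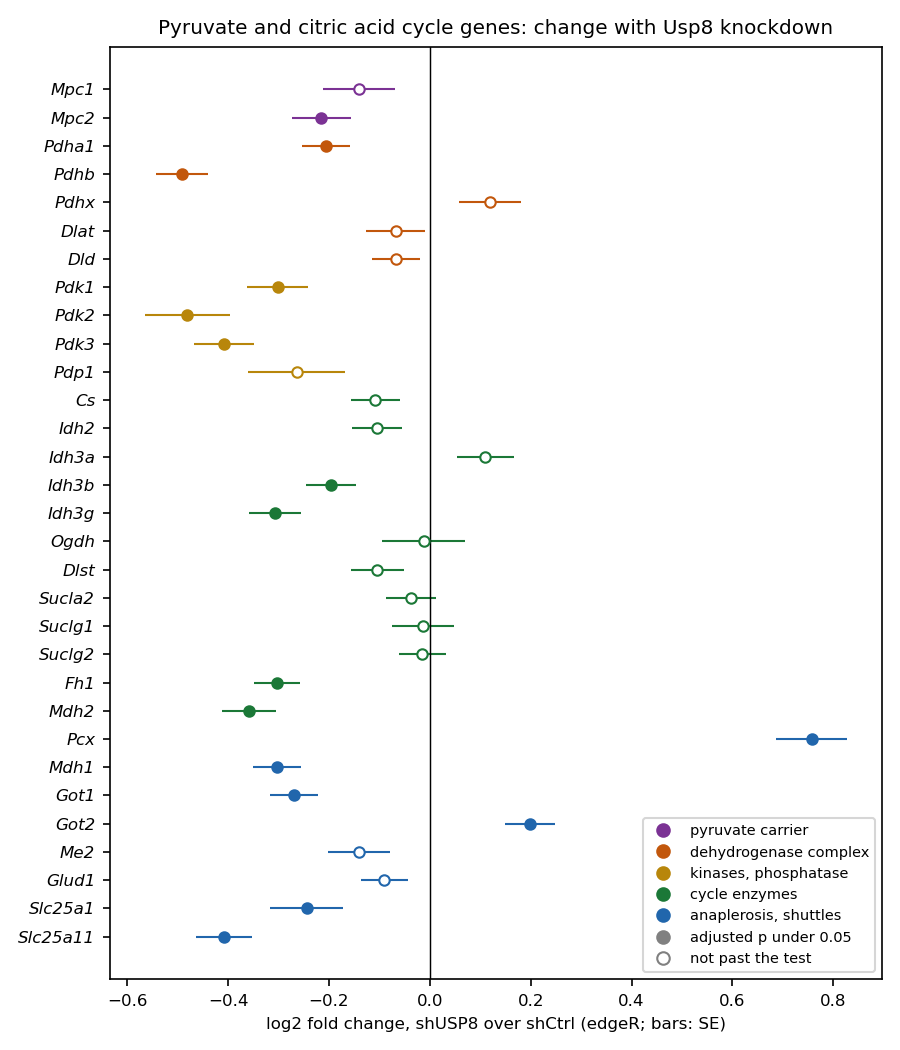
Log2 fold change of each of the 31 genes tested, shUSP8 over shCtrl, with its SE (horizontal axis, edgeR); colours give the role and filled points passed an adjusted p of 0.05. The points run from Pdhb at -0.49 to Pcx at 0.76, and 27 of 31 lie left of 0, where 50.8% of all genes tested do. On TPM 17 of 31 are below 0, where the all-gene median is 0.11.

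The promoters of 4 of the genes that changed are shown, so that the sequence next to each change can be read: Pdhb and Idh3g, which fell, and Pcx and Got2, which rose. They are RefSeq windows on GRCm38.p6, printed 5′ to 3′ on the gene's strand and trimmed to bases upstream of the start in both RefSeq and GENCODE M21. Capitals mark any match to the motifs below. They lie at chr14:8173026-8173242 (minus strand) for Pdhb, chrX:73786898-73787147 (minus strand) for Idh3g, chr19:4510222-4510471 (plus strand) for Pcx and chr8:95888548-95888651 (minus strand) for Got2.
Pdhb: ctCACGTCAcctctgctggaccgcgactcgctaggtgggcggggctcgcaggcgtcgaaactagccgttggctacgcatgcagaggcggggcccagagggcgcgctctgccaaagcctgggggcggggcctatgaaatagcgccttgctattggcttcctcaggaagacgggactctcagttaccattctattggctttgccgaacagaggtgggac
Idh3g: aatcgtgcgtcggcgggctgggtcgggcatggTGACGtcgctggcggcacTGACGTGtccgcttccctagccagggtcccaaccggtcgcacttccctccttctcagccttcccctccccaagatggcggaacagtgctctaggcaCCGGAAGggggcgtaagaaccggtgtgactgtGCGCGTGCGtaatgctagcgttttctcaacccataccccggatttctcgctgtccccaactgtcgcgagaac
Pcx: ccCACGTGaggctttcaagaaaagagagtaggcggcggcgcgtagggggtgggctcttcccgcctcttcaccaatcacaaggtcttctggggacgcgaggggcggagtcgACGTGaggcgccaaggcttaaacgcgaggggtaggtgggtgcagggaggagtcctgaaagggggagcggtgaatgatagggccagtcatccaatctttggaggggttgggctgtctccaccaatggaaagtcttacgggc
Got2: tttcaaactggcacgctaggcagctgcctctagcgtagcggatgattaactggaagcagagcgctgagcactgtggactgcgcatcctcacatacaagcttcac
Windows of 250 bases before to 50 after the RefSeq start were found for 29 of the 32 genes (not for Pdp1, Idh3a and Me2), and both strands were searched. The CREB core TGACG was in 8 of 14 genes that fell (57.1%), in 0 of the 2 that rose and in 5 of 12 that passed neither way (41.7%), where 36.3% of 9361 tested genes and 23.0% of all 27025 genes in the table held it. The hypoxia element ACGTG, which overlaps the E-box CACGTG and the reverse of TGACG, was in 6 of 14 genes that fell (42.9%), in Pcx of the 2 that rose and in 1 of 12 others (8.33%), against 29.9% of tested genes. Pcx carried the E-box 248 bases before its start. It has another window in the table, and which start these cells used is not known from gene-level values. The NRF1 site GCGCNTGCG was in 6 of 29 genes (20.7%, against 16.1% of tested genes), CCGGAAG for ETS factors in 5 (17.2%, against 21.3%), CACGTG in 4 (13.8%, against 12%) and the estrogen-related receptor half-site AAGGTCA in 2 (6.90%, against 3.92%). The interferon element TTCNNTTTC was in 2 (6.90%, against 8.56%) and the STAT element TTCNNNGAA in 0 (against 8.07%). These matches are descriptions of the letters in the windows and not binding sites.

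Of the mitochondrial pyruvate carrier, which needs both of its subunits, Mpc2 fell and Mpc1 did not pass the test. Mpc2 had 68.5, 60.6 and 61.3 CPM in shUSP8 libraries, against 73.9, 72.4 and 74.7 CPM in shCtrl libraries. The groups did not overlap, though shUSP8_1 lay closer to the shCtrl libraries than the other 2 did. The log2 fold change was -0.21 (SE 0.06, adjusted p = 0.0137), and it lost the test without shUSP8_3 or shCtrl_3, with library totals (adjusted p = 0.0769), with effective-length offsets (adjusted p = 0.0656) and on TPM. Mpc1 had 28.6 ± 1.33 CPM in shUSP8 cells and 31.6 ± 2.06 CPM in shCtrl cells (SD, n = 3 each), with a log2 fold change of -0.14 (adjusted p = 0.151) and overlapping groups. A processed pseudogene of Mpc1 had 4.29 to 25.4 counts per library, against 555.7 to 649.4 for Mpc1, and how reads that match both were shared out is not known here.

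Within the pyruvate dehydrogenase complex both subunits of the E1 decarboxylase fell and the other 3 components did not pass the test. Pdhb had 174.3, 174.4 and 163.0 CPM in shUSP8 libraries, against 247.1, 229.0 and 242.8 CPM in shCtrl libraries. No shUSP8 library came near the lowest shCtrl library. The gene (chr14:8165996-8173025, minus strand, GRCm38) was 1.41-fold lower, or -0.49 on the log2 scale (SE 0.05, edgeR adjusted p = 1.87e-05). Pdha1, which encodes the E1 alpha subunit on which the kinases act, had 159.5, 161.6 and 161.7 CPM in shUSP8 libraries, against 181.5, 185.1 and 190.5 CPM in shCtrl libraries. The libraries of each group lay close together, and the log2 fold change was -0.21 (SE 0.05, adjusted p = 0.00497). Exons of Pdha1 overlap those of Map3k15 on the other strand (a mean of 177.7 counts, against 3477.1 for Pdha1), and whether counting used strand is not given in the sources used here. Dlat, the E2 acetyltransferase, and Dld, the E3 dehydrogenase shared with other complexes, both had a log2 fold change of -0.07 (adjusted p = 0.414 and 0.31). Pdhx, the protein that anchors E3 to the core, had 61.2, 55.5 and 61.0 CPM in shUSP8 libraries, against 54.4, 57.7 and 51.6 CPM in shCtrl libraries, which overlap, with a log2 fold change of 0.12 (adjusted p = 0.165). Per length, the 5 components together reached 478.2 ± 8.69 TPM in shUSP8 cells and 510.9 ± 22.0 TPM in shCtrl cells (SD, n = 3 each). That sum was lower in every shUSP8 library than in any shCtrl library. A two-sided exact permutation test gave p = 0.1, the smallest that 3 against 3 libraries can give (0.133 adjusted over 4 such tests). The lower sum does not stand for all 5 components. Pdhb averaged 172.5 TPM in shUSP8 cells and 221.3 TPM in shCtrl cells, and Pdha1 79.3 and 83.3 TPM. In contrast, Pdhx (50.6 and 39.7 TPM), Dlat (70.5 and 64.4 TPM) and Dld (105.4 and 102.2 TPM) averaged higher in shUSP8 cells. On TPM the all-gene median log2 fold change was 0.11, from which Pdhx, Dlat and Dld differed by 0.238, 0.024 and -0.066. In limma on TPM Pdha1 (adjusted p = 0.427), Dlat (adjusted p = 0.359) and Dld (adjusted p = 0.617) did not pass.

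In counts, Pdk1, Pdk2 and Pdk3, kinases that switch off the dehydrogenase by phosphorylating E1 alpha, fell with their substrate. In limma on TPM, Pdk3 passed (adjusted p = 0.0172). Pdk1 (adjusted p = 0.268), Pdk2 (adjusted p = 0.23) and the substrate Pdha1 (adjusted p = 0.427) did not. Pdk2 had 11.9, 10.9 and 11.2 CPM in shUSP8 libraries, against 16.1, 14.8 and 16.5 CPM in shCtrl libraries, a log2 fold change of -0.48 (SE 0.08, adjusted p = 0.000936). Pdk3 had 46.3, 47.4 and 43.9 CPM in shUSP8 libraries, against 58.9, 59.1 and 64.4 CPM in shCtrl libraries, a log2 fold change of -0.41 (SE 0.06, adjusted p = 0.00023). Pdk1 had 172.0, 192.0 and 163.3 CPM in shUSP8 libraries, against 217.1, 212.6 and 220.2 CPM in shCtrl libraries, a log2 fold change of -0.30 (SE 0.06, adjusted p = 0.00243). In all 3 kinases the groups were apart in CPM, and shUSP8_2 was the highest shUSP8 library for Pdk1 and the lowest for Pdk2. Pdk2 missed the threshold when effective lengths, which take in the longer estimated fragments of shUSP8_2, entered edgeR as offsets (adjusted p = 0.103). Pdk4 did not pass the filter: it had 42 counts in shUSP8_1, the library that also held the muscle transcripts, and 0 in the other 5, where a count of 0 allows up to 3. Pdp1, a catalytic subunit of the opposing phosphatase, had 9.99 ± 0.22 CPM in shUSP8 cells and 12 ± 1.25 CPM in shCtrl cells (SD, n = 3 each). Its groups did not overlap but its log2 fold change of -0.26 missed the threshold (adjusted p = 0.0538), and it passed with upper-quartile factors or with no filter. The 4 kinases summed to 112.2, 121.2 and 113.6 TPM in shUSP8 libraries, against 133.2, 126.5 and 129.5 TPM in shCtrl libraries (two-sided exact permutation test, p = 0.1). Pdk1 made up 65.7% of that sum in shUSP8 cells and 63.6% in shCtrl cells, Pdk3 26.8% and 28.8%, and Pdk2 7.12% and 7.59%.

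Among the 12 cycle enzymes 4 fell (33.3%, where 14.9% of all genes tested fell) and 0 rose (where 17.8% rose) in edgeR at an adjusted p of 0.05, with a median log2 fold change of -0.10. At an unadjusted p of 0.05, too, 0 rose in edgeR, a threshold at which the share of all genes was not counted. At an adjusted p of 0.05, 0 rose in DESeq2 (13.6% of all genes) or limma-voom (17.7%), while 1, Idh3a, rose in limma on TPM (19.1%). Mdh2, the mitochondrial malate dehydrogenase, had the highest level per length of all 32 genes, at 741.6 ± 33.5 TPM in shUSP8 cells and 842.2 ± 47.2 TPM in shCtrl cells (SD, n = 3 each). It had 676.5, 662.1 and 652.4 CPM in shUSP8 libraries, against 874.0, 808.0 and 871.0 CPM in shCtrl libraries. All 3 shUSP8 libraries lay well below the lowest shCtrl library, and the log2 fold change was -0.36 (SE 0.05, adjusted p = 0.000261). Fh1, fumarase, had 132.6, 128.5 and 131.5 CPM in shUSP8 libraries, against 163.8, 159.0 and 161.5 CPM in shCtrl libraries, a log2 fold change of -0.30 (SE 0.05, adjusted p = 0.000341). The libraries of each group again lay close together. In limma on TPM neither Mdh2 (adjusted p = 0.0678) nor Fh1 (adjusted p = 0.065) passed.

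The NAD-dependent isocitrate dehydrogenase, made of a catalytic alpha subunit with beta and gamma subunits, did not move as one. Idh3g, the gamma subunit (chrX:73778963-73786897, minus strand, GRCm38), had 207.4, 199.5 and 191.2 CPM in shUSP8 libraries, against 241.9, 240.7 and 257.3 CPM in shCtrl libraries, and fell by 0.31 on the log2 scale (SE 0.05, adjusted p = 0.000757). Idh3b, the beta subunit, had 249.1, 245.0 and 233.5 CPM in shUSP8 libraries, against 271.3, 278.7 and 283.7 CPM in shCtrl libraries, and fell by 0.20 (SE 0.05, adjusted p = 0.00914). Idh3b shares exons with Nop56 on the other strand (a mean of 2718.9 counts, against 5221.0 for Idh3b), so its value is uncertain, and it lost the test without shUSP8_3, with library totals (adjusted p = 0.0754) and on TPM. Idh3a, the alpha subunit, had 181.8, 190.1 and 175.8 CPM in shUSP8 libraries, against 180.6, 164.1 and 162.8 CPM in shCtrl libraries. These groups overlap, and the log2 fold change was 0.11 (SE 0.06, adjusted p = 0.157).

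The other 8 cycle genes, Idh3a included, did not pass the test and had log2 fold changes between -0.11 and 0.11. Cs, citrate synthase, had 707.5 ± 8.54 CPM in shUSP8 cells and 762.5 ± 5.04 CPM in shCtrl cells (SD, n = 3 each). Its groups did not overlap, with a log2 fold change of -0.11 (adjusted p = 0.106). Idh2, the NADP-dependent mitochondrial isocitrate dehydrogenase, and Dlst, the succinyltransferase of the oxoglutarate dehydrogenase complex, had log2 fold changes of -0.11 (adjusted p = 0.129) and -0.10 (adjusted p = 0.146), with groups that did not overlap. Ogdh, the E1 component of the same complex, spread from 306.5 to 331.4 CPM in shUSP8 libraries and from 278.7 to 355.8 CPM in shCtrl libraries, the widest spread of any of the genes within shCtrl (12.3% of the mean). The succinyl-CoA ligase subunits Sucla2 (ADP-forming), Suclg2 (GDP-forming) and Suclg1 (shared) had log2 fold changes of -0.04, -0.01 and -0.01 (adjusted p = 0.616, 0.841 and 0.884). Summed per length, the 12 enzymes reached 2327.0, 2406.4 and 2372.5 TPM in shUSP8 libraries, against 2584.8, 2440.5 and 2395.0 TPM in shCtrl libraries (two-sided exact permutation test, p = 0.2). These sums overlap, since shUSP8_2 lay above shCtrl_3.

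**Figure D2:**
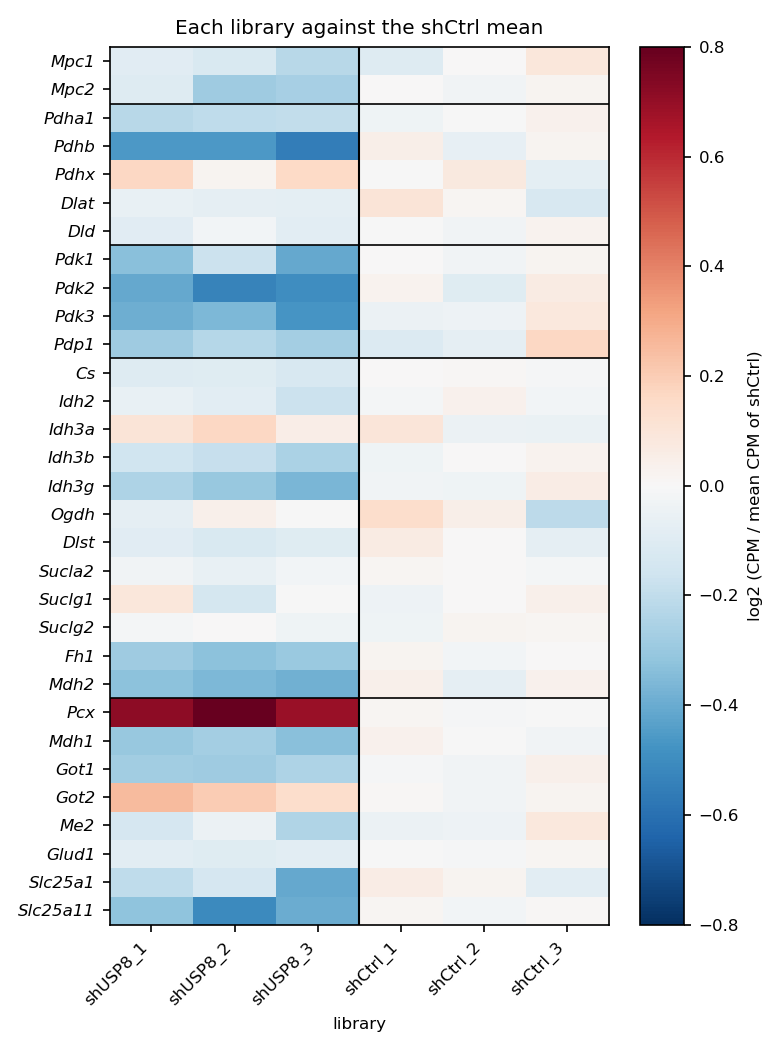
Log2 ratio of each library's CPM to the mean of the shCtrl libraries, for the 31 genes tested (rows, by role) in the 3 shUSP8 libraries (left) and the 3 shCtrl libraries (right). Blue cells are lower and red cells are higher; Pcx and Got2 are red in all 3 shUSP8 libraries, and the 14 genes that fell are blue in all 3.

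Of the 8 genes of anaplerosis and shuttles 4 fell (50.0%, where 14.9% of all genes tested fell) and 2 rose (25.0%, near the 17.8% of all genes that rose). Pcx, which makes oxaloacetate from pyruvate (chr19:4510472-4621752, plus strand, GRCm38), had 28.6, 31.7 and 28.1 CPM in shUSP8 libraries, against 17.6, 17.3 and 17.4 CPM in shCtrl libraries. The shCtrl libraries were nearly equal and every shUSP8 library lay far above them. Pcx was 1.69-fold higher, or 0.76 on the log2 scale (SE 0.07, edgeR adjusted p = 5.38e-06), and it passed under all 17 other ways of processing that were tried, in which its log2 fold change ran from 0.70 to 0.87. Its level per length stayed low, at 9.52 ± 0.45 TPM in shUSP8 cells and 5.18 ± 0.21 TPM in shCtrl cells (SD, n = 3 each), where only Pdp1 and Pdk4 averaged less over the 6 libraries. Of the enzymes that bring glutamate carbon into the cycle, Glud1, glutamate dehydrogenase, had 389.2 ± 1.83 CPM in shUSP8 cells and 414.2 ± 3.96 CPM in shCtrl cells, with a log2 fold change of -0.09 (adjusted p = 0.161). Me2, the mitochondrial NAD-dependent malic enzyme that turns malate back into pyruvate, had a log2 fold change of -0.14 (adjusted p = 0.0975).

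The malate-aspartate shuttle split between its members. Got2, the mitochondrial aspartate aminotransferase (chr8:95864134-95888547, minus strand, GRCm38), had 402.0, 389.1 and 372.6 CPM in shUSP8 libraries, against 340.3, 330.9 and 342.5 CPM in shCtrl libraries. All 3 shUSP8 libraries were higher, with a log2 fold change of 0.20 (SE 0.05, adjusted p = 0.00931), which missed the threshold without shCtrl_2 (adjusted p = 0.0632). A pseudogene of Got2 had 14.6 to 38.6 counts per library, against 6547.9 to 8236.5 for Got2. Got1, the cytosolic aminotransferase, had 160.0, 159.5 and 163.2 CPM in shUSP8 libraries, against 192.6, 189.9 and 199.1 CPM in shCtrl libraries, and fell by 0.27 on the log2 scale (SE 0.05, adjusted p = 0.000885). Mdh1, the cytosolic malate dehydrogenase, had 423.0, 433.1 and 415.3 CPM in shUSP8 libraries, against 534.5, 521.0 and 512.9 CPM in shCtrl libraries, and fell by 0.30 (SE 0.05, adjusted p = 0.000484). For both cytosolic enzymes the groups were apart, with all 3 shUSP8 libraries the lower. In limma on TPM neither Got1 (adjusted p = 0.145) nor Mdh1 (adjusted p = 0.0641) passed.

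Both carriers in the list fell. Slc25a11, the oxoglutarate-malate carrier of the shuttle, had 151.8, 132.8 and 143.7 CPM in shUSP8 libraries, against 191.2, 186.5 and 190.6 CPM in shCtrl libraries, a log2 fold change of -0.41 (SE 0.06, adjusted p = 0.000144). Its exons overlap Rnf167 on the other strand, which had a mean of 549.9 counts, against 3327.1 for Slc25a11. Slc25a1, the citrate carrier that exports citrate for lipid synthesis, had 73.0, 76.6 and 63.1 CPM in shUSP8 libraries, against 87.3, 85.3 and 79.2 CPM in shCtrl libraries. Its libraries were the most spread within shUSP8 of any of the genes (9.84% of the mean), and the log2 fold change of -0.24 (SE 0.07, adjusted p = 0.022) lost the test without shUSP8_3, shCtrl_1 or shCtrl_2, with library totals (adjusted p = 0.107), with effective-length offsets (adjusted p = 0.0994) and on TPM.

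**Figure D3:**
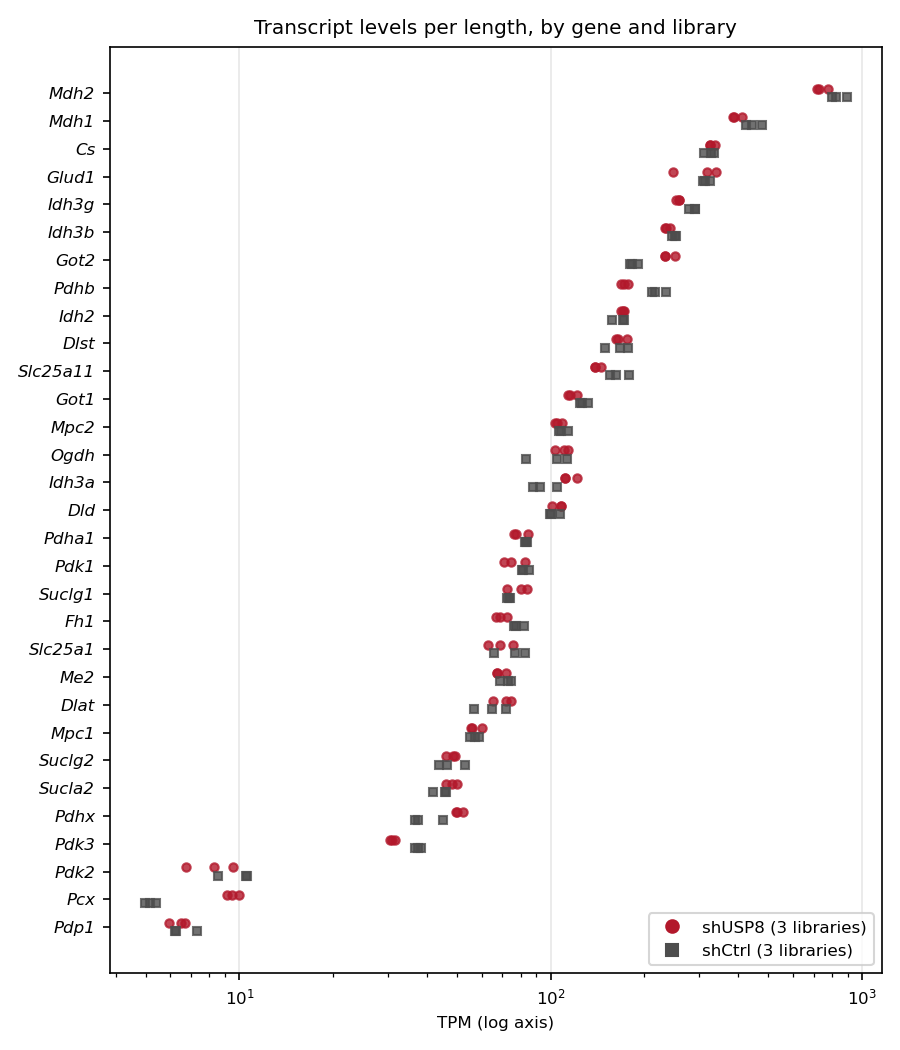
TPM, a level per length, of each of the 31 genes tested in every library (log axis), with shUSP8 libraries as circles drawn above shCtrl libraries as squares; genes run from the highest mean to the lowest. Mdh2 heads the order and Pcx and Pdp1 close it. The shUSP8 libraries lie wholly below for 9 of the 31 genes, Pdhb included, and wholly above for 4, Pcx and Got2 included. The groups overlap for the other 18. Shares over all genes were counted in CPM only, so these counts have none beside them.

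Per length, Mdh2 was followed by Mdh1 (394.6 ± 14.6 TPM in shUSP8 cells and 449.3 ± 26.4 TPM in shCtrl cells) and Cs (328.5 ± 6.62 and 324.2 ± 12.7 TPM in the same order; SD, n = 3 each). Cs and Glud1, next in the order at 301.8 ± 48.4 TPM in shUSP8 cells and 315.3 ± 7.56 TPM in shCtrl cells, overlap within the spread of shUSP8. The pyruvate carrier subunits averaged 57.2 ± 2.48 TPM (Mpc1) and 105.6 ± 2.81 TPM (Mpc2) in shUSP8 cells, against 57.0 ± 1.79 and 109.5 ± 3.85 TPM in shCtrl cells. Pdk1 was the main kinase at 76.1 ± 6.17 TPM in shUSP8 cells and 82.5 ± 2.48 TPM in shCtrl cells, above Pdk3 at 31.0 ± 0.52 TPM and 37.4 ± 0.81 TPM in the same order.

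Ratios within a library do not depend on how libraries are scaled against each other. The ratio of Pcx to Pdha1, the 2 mitochondrial fates of pyruvate, was 0.12, 0.13 and 0.112 in shUSP8 libraries, against 0.0646, 0.0615 and 0.0603 in shCtrl libraries, a ratio of means of 1.94 (two-sided exact permutation test, p = 0.1, the smallest possible; 0.133 adjusted over 4 tests). This ratio and its test were chosen with earlier results of these data known. It sets a gene that rose against another that fell in counts, so it is no independent support for either change. The ratios that follow were chosen after the values were seen and carry no test. Pdhx to Pdhb was 0.291, 0.281 and 0.309 in shUSP8 libraries, against 0.159, 0.213 and 0.169 in shCtrl libraries. Idh3a to Idh3g was 0.429, 0.47 and 0.441 in shUSP8 libraries, against 0.359, 0.332 and 0.301 in shCtrl libraries. Got2 to Got1 was 2.05, 2.17 and 1.91 in shUSP8 libraries, against 1.45, 1.45 and 1.44 in shCtrl libraries. In each of these the groups were apart, with the ratio higher in all 3 shUSP8 libraries. Mdh1 to Mdh2, both of which fell, was 0.532 ± 0.007 in shUSP8 cells and 0.534 ± 0.02 in shCtrl cells (SD, n = 3 each), and overlapped.

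**Figure D4:**
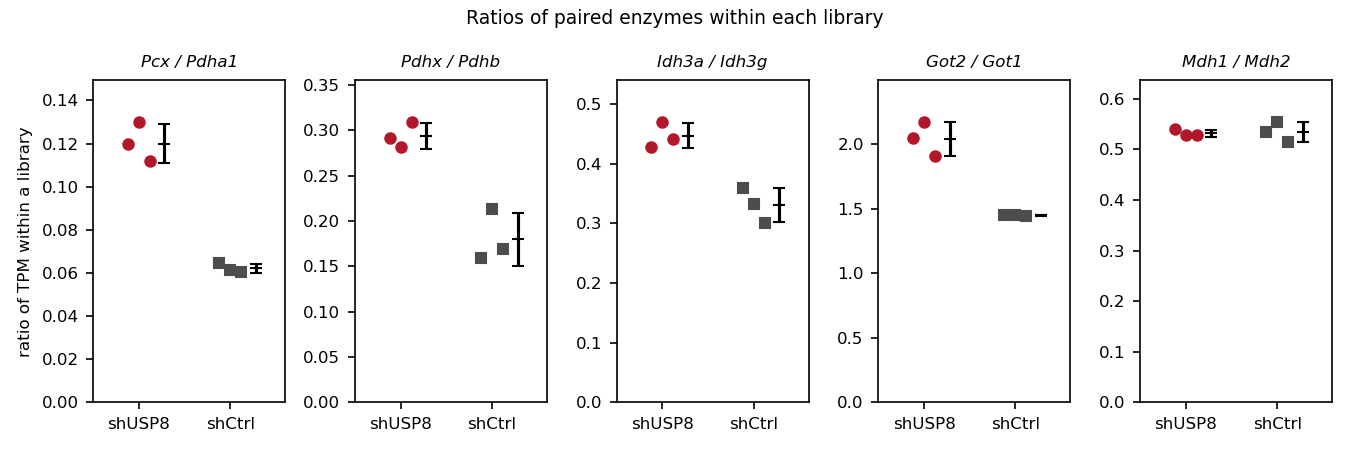
Ratios of TPM within each library for 5 pairs of enzymes, with shUSP8 libraries as circles at the left and shCtrl libraries as squares at the right of each panel; black bars are the mean ± SD (n = 3 each). The groups are apart for Pcx to Pdha1 (0.12 in shUSP8 and 0.0621 in shCtrl on average) and the next 3 pairs, and overlap for Mdh1 to Mdh2.

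The direction of small changes depended on the scale. When TPM was tested in place of counts, on log2(TPM + 1), the genes tested had a median log2 fold change of 0.11, and changes on this scale are read against that shift. The median of the 31 genes was -0.05, and 25 of them lay below the all-gene median and 6 above. All 14 genes that fell in counts lay below it, but TPM rests on the same estimates, so this is no independent test. In limma on TPM 4 fell, Pdhb, Pdk3, Idh3g and Slc25a11, where 4.02% of all genes fell, and 4 rose, Pcx, Got2, Pdhx and Idh3a, where 19.1% of all genes rose. The other 10 genes that fell in counts ran from -0.25 (Pdk2) to -0.05 (Mpc2) on this scale and did not pass. Pdhx and Idh3a, which passed the test on TPM at 0.35 and 0.27, stood 0.24 and 0.16 above the all-gene median. Mpc1, Dlat, Dld, Cs, Idh2, Dlst, Ogdh and the succinyl-CoA ligase subunits, none of which passed on either scale, were below 0 in counts and at or above 0 on TPM. Pcx, Pdhb and Pdk3 passed under every one of the 17 other ways of processing.

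**Figure D5:**
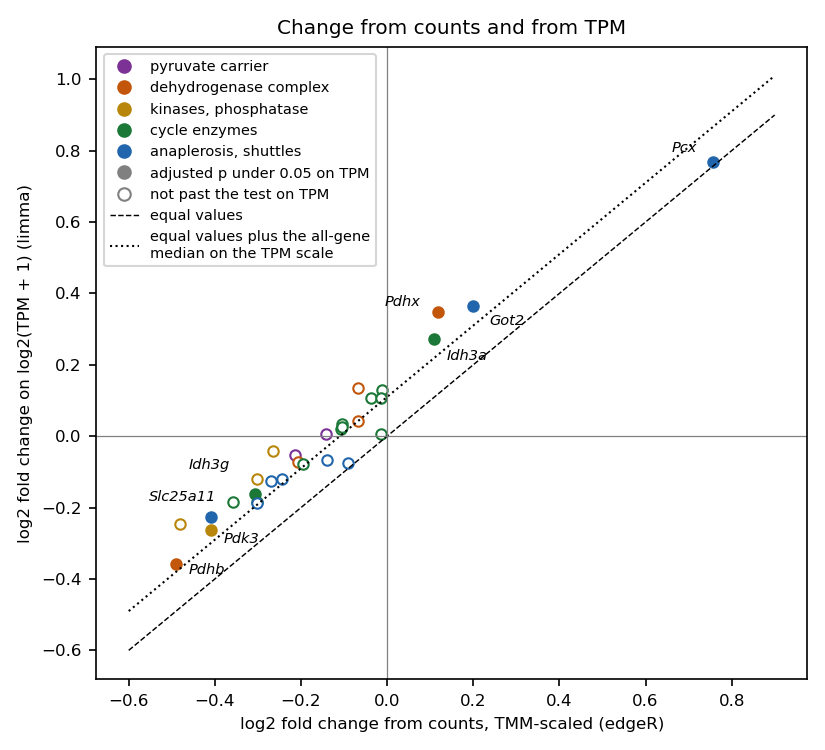
Log2 fold change, shUSP8 over shCtrl, from counts with TMM factors (horizontal, edgeR) and on log2(TPM + 1) (vertical, limma) for the 31 genes; filled points passed an adjusted p of 0.05 on TPM. Most points lie on or above the dotted line, which is equality raised by the all-gene median of 0.11. Pcx lies below that line at 0.76 and 0.77, as do Glud1, Suclg2 and Me2.

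Genes next to the pathway were counted from 5 further lists. Of 10 genes of the remaining steps of the cycle and their assembly factors, 4 fell in edgeR (40%, where 14.9% of all genes fell; median log2 fold change -0.17). In edgeR 0 rose (17.8% of all genes), also at an unadjusted p of 0.05, at which the share of all genes was not counted. At an adjusted p of 0.05, 0 rose in DESeq2 (13.6% of all genes), limma-voom (17.7%) or limma on TPM (19.1%). In limma on TPM 0 fell as well, where 4.02% of all genes did. Sdha, the flavoprotein subunit of succinate dehydrogenase, fell by 0.24 (adjusted p = 0.00212) and Sdhd, a membrane anchor of the same enzyme, by 0.19 (adjusted p = 0.0101). Of the 7 genes tested for lactate and pyruvate supply 3 fell (42.9%) and 1 rose (14.3%, near the share of all genes), with a median of -0.19. Slc16a7, a monocarboxylate transporter, fell by 0.59 with 27.0 ± 2.31 CPM in shUSP8 cells and 40.7 ± 2.62 CPM in shCtrl cells (SD, n = 3 each; adjusted p = 9.87e-05). Ldha, the lactate dehydrogenase subunit, fell by 0.30 (adjusted p = 0.014) and Pkm, pyruvate kinase, by 0.19 (adjusted p = 0.0417). On TPM the groups of Ldha and of Pkm overlapped. In limma on TPM 1 of the 7 genes fell and 1 rose, where 4.02% and 19.1% of all genes did.

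Of 9 genes tested for carriers and cytosolic partners of the cycle 4 rose (44.4%, where 17.8% of all genes rose), 1 fell (11.1%, near the 14.9% of all genes) and 4 did not pass (median log2 fold change 0.31). Me1, the cytosolic NADP-dependent malic enzyme, had 74.5, 85.7 and 82.0 CPM in shUSP8 libraries, against 36.4, 40.3 and 38.6 CPM in shCtrl libraries. The groups stood far apart, and Me1 was 2.10-fold higher, with a log2 fold change of 1.07 (SE 0.07, adjusted p = 1.16e-07). Slc25a12, an aspartate-glutamate carrier of the malate-aspartate shuttle, had 106.1, 102.3 and 108.5 CPM in shUSP8 libraries, against 72.3, 77.5 and 75.1 CPM in shCtrl libraries, and rose by 0.49 (adjusted p = 1.38e-05). It rose with Got2 while Slc25a11, Got1, Mdh1 and Mdh2 of the same shuttle fell. Idh1, the cytosolic NADP-dependent isocitrate dehydrogenase, rose by 0.37 (adjusted p = 8.07e-05).

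Of 14 genes tested for glutamine and amino acid entry 2 rose (14.3%, where 17.8% of all genes rose) and 4 fell (28.6%, where 14.9% fell), with a median log2 fold change of 0.02. In limma on TPM, of the 13 matched by symbol, 2 rose and 0 fell, where 19.1% and 4.02% of all genes did. Slc1a5, a glutamine transporter, rose by 0.23 (adjusted p = 0.00306), while Pccb, a subunit of propionyl-CoA carboxylase, fell by 0.24 (adjusted p = 0.0157). Of 11 genes of lipoate and cofactor supply 2 rose (18.2%) and 1 fell (9.09%) in edgeR, both near the shares of all genes (median 0.12). In limma on TPM 4 of the 11 rose and 0 fell, where 19.1% and 4.02% of all genes did. Slc19a2, a plasma membrane transporter of thiamine, rose by 0.25 (adjusted p = 0.0143).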

How the data were processed

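The 6 RNA libraries were read from both ends by DNBSEQ, per the labels' protocols. The deposited expected counts are estimates of the fragments of each gene, 7.16% of them not whole, and were rounded. The deposited TPM values are the same estimates per effective length, with an equal sum for every library. Tools named in the submitters' processing notes are RSEM and DESeq2 1.28.1, with the mm10 genome; the aligner and annotation release are not given in the sources used here. Columns named WT were taken as shCtrl by genotype label and number. Columns named KO were taken as shUSP8, the only other genotype, which the Usp8 counts check for groups but not for numbers.

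All 55291 symbols entered edgeR 4.0.16 (R 4.3.3): TMM factors, filterByExpr (minimum count 10, total 15) and quasi-likelihood F tests (robust) with Benjamini-Hochberg adjustment over 12440 genes. A call needed an adjusted p under 0.05. SE is the absolute log2 fold change over the square root of F. TPM was tested in limma 3.58.1 on log2(TPM + 1), which understates changes of low genes. Sums and ratios used an exact permutation test. Transcript identifiers tied symbols to GENCODE M21 (98.7% found). The members, lists, motifs and tests were chosen with earlier results of these data known. All 32 genes are named, and of each neighbouring list up to 3 called genes by smallest p, some of which are not reported here. Alternatives covered RLE, upper-quartile and library-total scaling, the filter, DESeq2 1.42.0, limma-voom, TPM pseudocounts, effective-length offsets (expected count over TPM, as edgeR offsets), leaving out each library, and a replicate block. Scripts ran in Python 3.11.15 with scipy 1.17.1, pandas 2.3.3, numpy 2.4.6 and, for plots, matplotlib 3.10.9.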

Additional observations from a re-analysis of the deposited data

How the results depend on the processing

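Counts of lower and higher genes were 14 and 2 with RLE factors, DESeq2 and limma-voom, and 15 and 2 with upper-quartile factors or no filter. Of all genes, 15.2% were lower and 17.6% higher with RLE factors, 12.5% and 13.6% with DESeq2, and 15% and 17.7% with limma-voom. The shares were 15.2% and 17.5% with upper-quartile factors, and 9.88% and 10.8% with no filter. Library totals gave 11 (Idh3b, Mpc2 and Slc25a1 lost) and 4 (Pdhx and Idh3a gained), where 9.42% of all genes were lower and 25% higher. Both log2(TPM + 1) (4.02% and 19.1% of all genes) and log2(TPM + 0.1) (3.95% and 19.2%) gave 4 and 4, and log2(TPM + 1) with no filter gave 2 and 2 (1.56% and 7.01%). Effective-length offsets, which take the longer estimated fragments of shUSP8_2 into account, gave 11 and 2 (without Mpc2, Pdk2 and Slc25a1). There 9.9% of all genes were lower and 12.2% higher. The same without shUSP8_2, chosen after seeing the data, gave 13 and 2, where 9.66% and 11.4% of all genes were. In that setting 12 of the 14 were kept, Mpc2 and Pdk2 were lost, and Me2 was gained. The cause of these differences was not tested. Leaving out each library in turn gave 11 to 15 lower and 1 to 2 higher, where 9.81% to 16.5% of all genes were lower and 13.3% to 18.7% higher. The lowest counts of members came without shUSP8_3 and without shCtrl_2. With the replicate block, 14 fell and 2 rose, where 13.6% and 16.2% of all genes did. Replicate numbers do not mark pairs in the labels, and same-numbered libraries deviated from their group means with correlations of -0.011, 0.041 and -0.062. Of 527 values of single genes under the alternatives, 431 kept direction and side of the threshold, 45 lost the test, 9 gained it, and 42 changed sign without passing in either setting. The sums and ratios cannot pass an exact test at 3 libraries a group. Depth was nearly equal across libraries.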
